A study of Mus musculus with 4 samples.

Results

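Mast cells and basophils are granulocytes that arm themselves with IgE bound to the high-affinity receptor FceRI and release histamine and proteases when it is crosslinked. The genes described here are 9 genes of these lineages, found by name among 24497 mouse gene rows of one expression table: the transcription factor gene Gata2, the histamine-forming enzyme gene Hdc, the granule protease genes Cpa3, Mcpt8, Prss34 and Tpsb2, and the receptor genes Fcer1a, Ms4a2 and Il1rl1. All 9 had a row. GATA2 is needed for blood progenitors and is kept on in mast cells and basophils, where it drives granule and IgE receptor genes. Basophils and mast cells both grow from bone marrow under IL-3, and mast cells also under stem cell factor (SCF). Both cytokines were in the culture medium of the cells studied, per the labels.

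The samples were leukaemic cells driven by NRAS, a growth-promoting RAS protein, and AE9a, a shortened AML1-ETO fusion protein. They were made from bone marrow stem cells of wild-type (WT) or Tet2-/- donor mice and grown in lethally irradiated CD45.1+ B6.SJL recipients aged 6 to 8 weeks (900 cGy). Donor-derived CD45.2 cells were enriched from the recipients' spleens, and 2 RNA-seq libraries per genotype were made. By the labels, all 4 libraries shared the oncogenes, the culture with SCF, IL-3, IL-6, G418 and puromycin, and the irradiated host. The labels do not give the Tet2 allele, the vectors' promoters, or whether the replicates of a genotype are separate mice or clones, so p-values measure only how far these libraries differ, perhaps for technical reasons.

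Values are TPM as deposited, a length-corrected share of transcripts out of 1000000. The WT libraries differed by about read sampling noise over most genes, so their mean was counted as 1 sample (n = 1) against 2 KO-labelled libraries (n = 2, mean ± SD). Depth, estimated from the steps between low values, was about 19.4 to 24.3 M fragments (M, 1000000 fragments). Tet2 itself was called higher under the KO label, 63.7 and 68.1 TPM against 43.5 and 43.7 TPM (limma adjusted p = 0.0171). A level summed over the gene does not show a deleted exon, so directions rest on the labels, and the libraries are called KO-labelled here. Xist stood at 0.34 TPM in both WT libraries, against 86.1 and 28.2 TPM in the others, and Eif2s3y, a Y-linked gene, was at 29.8 to 107 TPM in all 4. ERCC spike-in RNA took 4.62% to 4.66% of TPM in WT and 2.95% to 3.19% in the others. The pan-leukocyte gene Ptprc and the myeloid genes Itgam and Cd33 were at 141 TPM or more in each library. Itgam and Cd33 were called higher under the KO label, from 149 to 624 and from 143 to 524 TPM. Cd34, checked with them, was called lower, from 60.6 to 15.3 TPM (limma adjusted p = 3.53e-06). Runx1t1 and Nras, in the same check, were called higher, from 31.2 to 176 and from 160 to 316 TPM. Whether these rows hold vector reads was not tested.

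Every one of the 9 genes was higher in both KO-labelled libraries than in either WT library. The background for such a separation was 31.3% of the genes above 0 in any library. Fcer1a, Prss34 and Tpsb2 were at 0 in both WT libraries, so any value above 0 in both others separated them. Among genes at 0 in both WT libraries and above 0 elsewhere the share was 36.3%. The summed level of the 9 genes was 5.34 and 5.78 TPM in WT, compared with 179 and 186 TPM in KO-labelled libraries. Hdc alone made up 68.1% to 71.7% of that sum in the latter. The genes fell into 3 tiers: Hdc at 127 TPM or more, then Cpa3, Mcpt8, Gata2 and Il1rl1 between 5.22 and 28.9 TPM, then Ms4a2, Prss34, Tpsb2 and Fcer1a at or under 1.68 TPM. In bulk RNA, more cells of a type and more of its RNA per cell cannot be told apart.

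**Figure D1:**
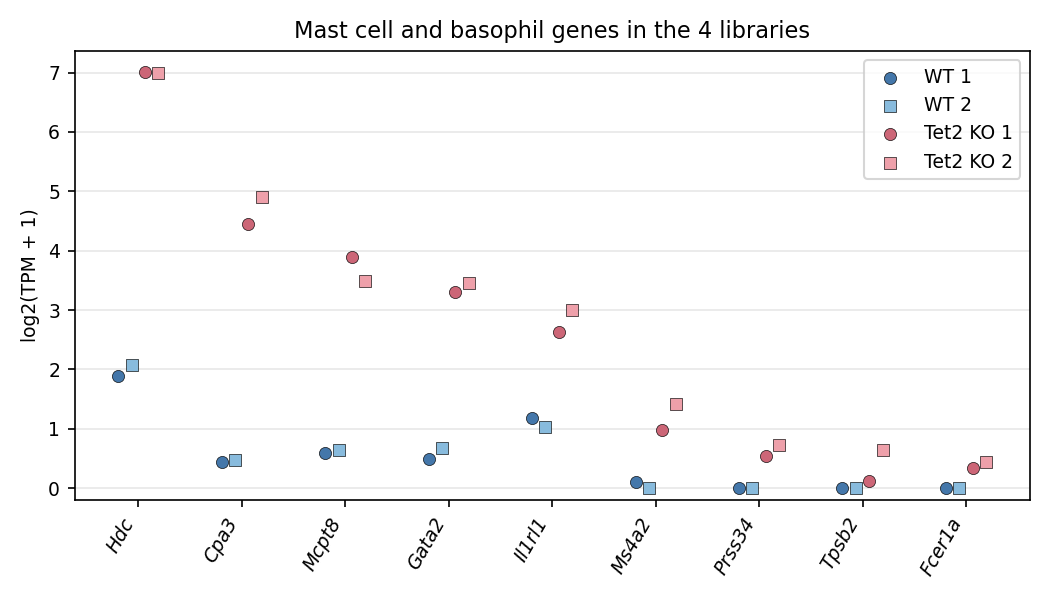
Level of each of the 9 genes in each library, as log2(TPM + 1), ordered by the mean of KO-labelled libraries; circles and squares are replicates 1 and 2. The red points lie above the blue points for all 9 genes, and Fcer1a, Prss34 and Tpsb2 are at 0 in both WT libraries.

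Since GATA factors bind the promoters of several of these genes in mast cells, the 250 bases before the annotated start sites were read from RefSeq (GRCm38.p6, the same assembly as mm10). Of the 9 genes, 8 had an entry, with 10 start sites in all. They are shown 5′ to 3′ on the gene's strand, with GATA matches in capitals. The letters searched on either strand were AGATAA, then TGATAA, then AGATAG and finally TGATAG. Cpa3, Prss34 and Ms4a2 hold a match within 50 bases of the start, Il1rl1 has 5 before its upstream start, and Mcpt8, shown for contrast, has none.
Cpa3 (chr3:20242182-20242431, minus strand): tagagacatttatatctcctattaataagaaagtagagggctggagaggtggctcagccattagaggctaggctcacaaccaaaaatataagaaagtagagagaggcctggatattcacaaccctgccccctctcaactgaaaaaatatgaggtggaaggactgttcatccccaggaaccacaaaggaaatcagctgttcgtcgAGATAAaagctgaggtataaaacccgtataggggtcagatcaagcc
Prss34 (chr17:25298144-25298393, plus strand): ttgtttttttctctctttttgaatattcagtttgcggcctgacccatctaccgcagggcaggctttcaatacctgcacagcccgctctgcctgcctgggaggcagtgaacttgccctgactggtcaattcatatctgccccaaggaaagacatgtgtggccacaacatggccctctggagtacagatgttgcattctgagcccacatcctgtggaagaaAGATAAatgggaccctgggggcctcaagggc
Ms4a2 (chr19:11623720-11623969, minus strand): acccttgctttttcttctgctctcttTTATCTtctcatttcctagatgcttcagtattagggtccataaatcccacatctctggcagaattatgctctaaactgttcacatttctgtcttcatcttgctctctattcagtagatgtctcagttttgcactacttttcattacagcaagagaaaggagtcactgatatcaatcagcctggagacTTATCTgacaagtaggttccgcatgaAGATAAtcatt
Il1rl1, upstream start (chr1:40429320-40429569, plus strand): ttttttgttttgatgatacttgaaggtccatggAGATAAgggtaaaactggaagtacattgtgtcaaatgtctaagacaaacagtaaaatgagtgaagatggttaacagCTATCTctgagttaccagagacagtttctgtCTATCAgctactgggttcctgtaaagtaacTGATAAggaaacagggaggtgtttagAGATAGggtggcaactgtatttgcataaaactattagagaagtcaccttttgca
Mcpt8 (chr14:56085198-56085447, minus strand): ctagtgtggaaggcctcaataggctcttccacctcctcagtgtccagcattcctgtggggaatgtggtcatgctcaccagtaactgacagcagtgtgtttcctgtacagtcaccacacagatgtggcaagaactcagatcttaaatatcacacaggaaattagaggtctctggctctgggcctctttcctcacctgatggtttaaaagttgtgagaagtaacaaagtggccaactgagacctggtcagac

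A GATA match was present for 6 of the 8 genes (Cpa3, Hdc, Fcer1a, Ms4a2, Prss34 and Il1rl1) and in 7 of the 10 windows, against 26.6% of 32817 windows of all genes. The window of Gata2 held none before either start. A RUNX match (TGTGGT, either strand), the core bound by the Runt domain that AE9a retains, was found for 4 of the 8 genes. These were Cpa3, Fcer1a, Il1rl1 at its second start, and Mcpt8, which holds 2, so that 4 of the 10 windows held a match. Among all windows 14.0% held it. PU.1 (GAGGAA) and MITF E-box (the letters CACGTG, or else CATGTG) matches were found for 2 genes each. They lay in 2 of the 10 windows each, against 23.3% and 17.6% of all windows. No match here overlapped another. These are letter matches in a short window and not measured binding.

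**Figure D2:**
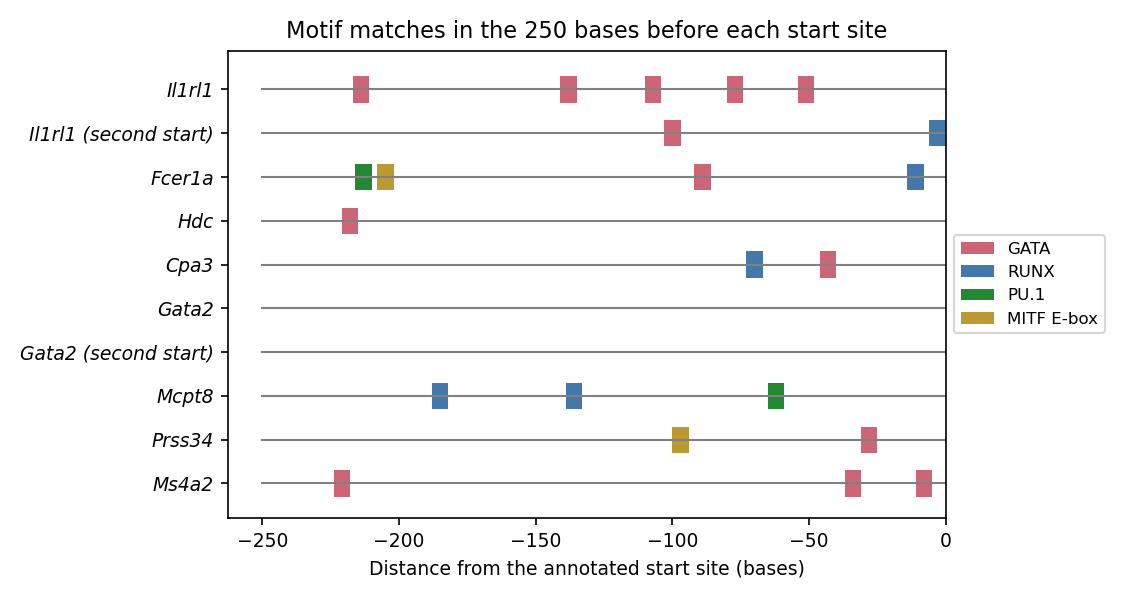
Position of motif matches (coloured blocks) before each annotated start site, in bases from that site, for the 8 genes with an entry; Il1rl1 and Gata2 have 2 starts. GATA matches lie before 7 of the 10 starts, and neither Gata2 start has a match to any of the 4 motifs.

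Genes were tested where at least 2 libraries reached 1 TPM. That admitted 5 of the 9: Hdc and Il1rl1 reached it in WT too, while Cpa3, Gata2 and Mcpt8 passed only through KO-labelled libraries, so that they had to differ. All 5 were called higher by limma at a Benjamini-Hochberg adjusted p under 0.05, against 22.1% of the 11919 genes tested. Their count is no support beyond the single values, because the filter chose 3 of them by the higher group. The median log2 change of all tested genes was -0.12. Log2 changes are given on the log2(TPM + 1) scale with their standard error, and this scale understates the change of low genes.

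Gata2 (chromosome 6, 88193891 to 88207032, plus strand) measured 0.41 and 0.59 TPM in WT, against 8.85 and 9.92 TPM under the KO label. The groups did not overlap, and the higher pair lay within 1.12-fold of each other. Its mean of 9.39 ± 0.757 TPM was 18.8-fold that of WT, and the log2 change was 2.79 ± 0.31 (limma adjusted p = 2.01e-06). Over 15 alternatives its log2 change ranged from 2.71 to 3.98.

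Hdc (chromosome 2, 126593667 to 126619299, minus strand) encodes histidine decarboxylase, which makes histamine from histidine and is also active in immature myeloid cells. It was at 2.72 and 3.19 TPM in WT but 128 and 127 TPM in KO-labelled libraries, the closest pair among the 9 genes. Its mean was 43.2-fold that of WT. The log2 change of 5.02 ± 0.20 (limma adjusted p = 1.39e-11) ranked 58 among the 11919 genes tested. Hdc was the only one of the 9 that kept its call in all 15 alternatives.

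Cpa3 (chromosome 3, 20215620 to 20242181, minus strand) encodes carboxypeptidase A3, stored in mast cell granules and also transcribed in basophils and early progenitors. Its level was 0.36 and 0.39 TPM in WT, compared with 20.9 and 28.9 TPM in KO-labelled libraries. These WT values correspond to about 5.02 and 4.94 fragments, against about 328 and 475 in the others, so the 66.5-fold ratio of means rests on few WT fragments. The log2 change was 4.22 ± 0.31 (limma adjusted p = 1.59e-08).

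Mcpt8 (chromosome 14, 56082166 to 56085273, minus strand) encodes a serine protease typical of mouse basophils. It was at 0.51 and 0.56 TPM in WT, about 3.99 and 3.98 fragments, and at 13.8 and 10.3 TPM in KO-labelled libraries. Alone with Hdc among the 9 genes, it was higher in replicate 1 than in replicate 2 of the latter. The log2 change was 3.07 ± 0.32 (limma adjusted p = 9.52e-07), and the ratio of means was 22.5.

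Prss34 (chromosome 17, 25298394 to 25300165, plus strand), another basophil serine protease gene, was listed at 0 in both WT libraries and at 0.46 and 0.65 TPM under the KO label, about 6.04 and 8.92 fragments. Tpsb2 (chromosome 17, 25366305 to 25369098, plus strand), which encodes the mast cell tryptase mMCP-6, was also at 0 in WT and at 0.09 and 0.57 TPM, or about 1.08 and 7.14 fragments. The KO-labelled libraries differed 6.33-fold for Tpsb2, the widest gap among the 9 genes, and one of them rests on about a single fragment. Of 1131 genes at 0 in both WT libraries and above 0 elsewhere, 36.3% were above 0 in both others, so this pattern by itself was common. Neither gene reached the filter, and neither is said to have risen.

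The IgE receptor has an alpha chain that binds IgE (Fcer1a), a beta chain (Ms4a2) and a signalling gamma chain shared with other Fc receptors (Fcer1g). Fcer1a (chromosome 1, 173221284 to 173227214, minus strand) was at 0 in both WT libraries and at 0.27 and 0.35 TPM under the KO label, about 2.87 and 3.89 fragments. Ms4a2 (chromosome 19, 11615523 to 11623719, minus strand) was at 0.07 and 0 TPM in WT but 0.98 and 1.68 TPM in the others, short of the filter. The gamma chain gene Fcer1g went the other way at a far higher level, from 738 to 433 ± 107 TPM (limma adjusted p = 0.0262), a call lost under each of the 4 other scalings tried (log2 change -0.79, or -0.20 with ERCC scaling). Of the chains that define the receptor on these cells, Fcer1a thus did not exceed 0.35 TPM and Ms4a2 did not exceed 1.68 TPM. The shared chain was abundant in all 4 libraries.

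Il1rl1 (chromosome 1, 40429570 to 40465415, plus strand) encodes ST2, the IL-33 receptor of mast cells, basophils and type 2 lymphoid cells. It was at 1.27 and 1.05 TPM in WT but 5.22 and 7.0 TPM in KO-labelled libraries, a log2 change of 1.71 ± 0.32 (limma adjusted p = 0.000344) and the smallest of the 5 called. The table gives one value per gene, so the membrane and the secreted form, and transcripts from its 2 start sites, cannot be told apart.

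With no filter on low values, 18594 genes were tested, and 1 of the 9 genes, Hdc, was called (limma adjusted p = 0.0385), against 0.662% of genes called higher and 1.59% lower. The other adjusted p-values were 0.0656 for Gata2, 0.0906 for Cpa3, 0.0995 for Mcpt8, 0.139 for Il1rl1, 0.145 for Fcer1a, 0.167 for Prss34, 0.209 for Ms4a2 and 0.560 for Tpsb2. With both WT libraries as samples the same 5 genes were called, against 29.5% of genes called higher and 37.9% lower.

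Other genes of these lineages were examined in 5 lists by role, 78 genes in all, of which 59 were tested. Genes said to have risen or fallen passed limma's threshold. Of the 59, 26 were higher and 20 lower, against 22.1% and 26.7% of all genes tested, and the median log2 change was 0.13. Of the 26, 8 passed the filter with no WT library at 1 TPM (Cma1, Tpsab1, Kit, Il18r1, Cd200r3, Ptger3, Itga2b and Tal1), so that they had to differ, as did 502 of the 2629 genes higher overall; the count and the median rest partly on them. Direction held under each of the 4 other scalings for 45 of the 46, and 39 of the 46 kept their call under all of them. The exception in direction was Ndst2, whose log2 change of -0.57 became 0.013 with ERCC scaling.

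Granule proteases of mast cells were mostly near 0. Of 10 genes 3 were tested and all 3 were higher, against 22.1% of all genes tested. Tpsab1, the tryptase gene next to Tpsb2, was at 0 in both WT libraries but at 6.99 and 4.95 TPM in the others (limma adjusted p = 1.85e-06). Cma1, the mast cell chymase, was at 0 in WT and at 1.02 and 2.43 TPM (limma adjusted p = 0.00430), a call lost with quantile normalization. Both passed the filter only through KO-labelled libraries. Ctsg, cathepsin G of neutrophils, monocytes and mast cells, rose from 28.0 to 315 ± 85.5 TPM. Mcpt4, a connective tissue mast cell protease, stayed at 0.09 TPM in each KO-labelled library and at 0 in WT. No 50-base word of Tpsb2, Mcpt8, Prss34, Cpa3, Fcer1a or Gata2 transcripts occurs in an annotated transcript of another gene, and 2.10% of those of Ms4a2 occur in Ms4a4b.

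Of 14 IgE receptor signalling genes tested 4 were higher (28.6%) and 3 lower (21.4%), near the shares over all genes of 22.1% and 26.7%, with a median log2 change of 0.057. The adaptor gene Lcp2 rose from 91.5 to 246 ± 52.9 TPM. The kinase gene Fyn fell from 131 to 16.9 ± 6.52 TPM, and Lat2, an adaptor of mast cells, fell from 254 to 84.6 ± 10.6 TPM.

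Among 20 surface receptor genes 15 were tested, with a median of 0.74. Of the 15, 8 were higher (53.3%) and 4 lower (26.7%), against 22.1% and 26.7% of all genes tested. Of the 8, 5 (Kit, Il18r1, Cd200r3, Ptger3 and Itga2b) were tested only because of their level in KO-labelled libraries. Kit, the SCF receptor that mast cells keep and basophils largely lose, went from 0.835 to 2.07 ± 0.191 TPM (limma adjusted p = 0.0329), a call lost with quantile normalization. The basophil and mast cell receptor gene Cd200r3 went from 0.075 to 2.03 ± 0.156 TPM and its relative Cd200r1 from 3.47 to 23.2 ± 3.07 TPM. Genes of the IL-3 receptor were lower or did not pass. Il3ra fell from 71.8 to 30.6 ± 2.40 TPM and Csf2rb2 from 334 to 99.5 ± 7.04 TPM, while Csf2rb stood at 521 and 395 ± 20.2 TPM (limma adjusted p = 0.182), called lower with both WT libraries as samples and at a log2 change of 0.19 with ERCC scaling, against -0.40 as reported. Itgb7, an integrin chain, fell from 406 to 46.5 ± 12.5 TPM and the complement receptor gene C3ar1 from 160 to 31.3 ± 8.49 TPM. Enpp3, the basophil activation marker CD203c, did not exceed 0.04 TPM in any library.

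Of 14 transcription factor genes 12 were tested, with a median of -0.52. Of the 12, 3 were higher and 6 lower, against 22.1% and 26.7% of all genes tested. The share higher was thus near that over all genes, and the share lower was above it. Tal1, 1 of the 3 higher, was tested only because of its level in KO-labelled libraries. Mitf, a factor of mast cell differentiation, fell from 38.6 to 6.76 ± 0.643 TPM, opposite to Gata2. Gata1 was at 0 in WT and at 0.33 and 0.36 TPM in KO-labelled libraries. Cebpa, which marks the basophil side of the split from mast cells, rose from 13.5 to 41.3 ± 7.91 TPM and Lyl1, a partner of GATA2, from 44.4 to 260 ± 19.3 TPM. Irf8, needed for the progenitors of basophils and monocytes, fell from 63.5 to 7.79 ± 1.60 TPM.

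Mediator genes were split, with 8 higher and 7 lower of 15 tested among 20, at a median of 0.52. These were 53.3% and 46.7%, against 22.1% and 26.7% of all genes tested. Slc18a2, which loads histamine into granules, rose from 1.36 to 4.12 ± 0.163 TPM (limma adjusted p = 0.00569). Alox5, the first enzyme of leukotriene synthesis, rose from 1.68 to 110 ± 22.7 TPM and the cyclooxygenase gene Ptgs1 from 4.97 to 201 ± 14.0 TPM. Il6 fell from 51.7 to 0.825 ± 0.445 TPM. The type 2 cytokine genes stayed low, with Il4 at 0 in WT and at 0.83 and 0.31 TPM in KO-labelled libraries and Il13 at or under 0.10 TPM throughout.

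**Figure D3:**
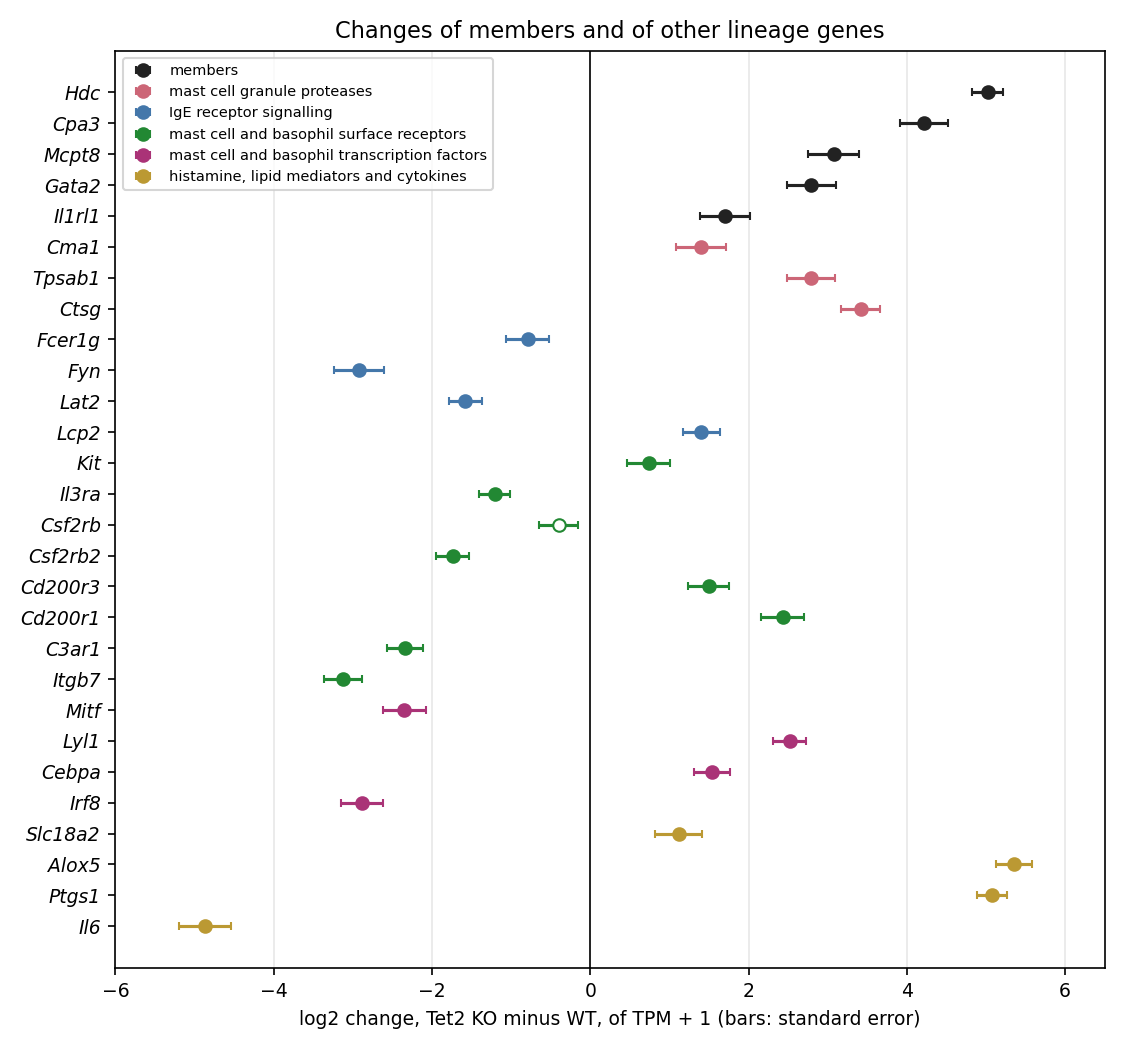
Log2 change (Tet2 KO minus WT, on TPM + 1) with its standard error for the 5 tested genes of the set and 23 named genes of the 5 role lists, coloured by list; the open point, Csf2rb, did not pass limma's threshold. The 5 tested genes and the proteases lie to the right of 0, while the other lists have points on both sides. Cpa3, Gata2, Mcpt8, Cma1 and Tpsab1, and the receptor genes Kit and Cd200r3, passed the filter only through KO-labelled libraries. They therefore had to lie to the right.

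Position was examined as well, over protein-coding genes within 200 kb, a distance chosen after earlier results were known, as were the neighbours named. Il1rl1 lies in a cluster of IL-1 and IL-18 receptor genes, and its 4 tested neighbours Il1r1, Il1rl2, Il18r1 and Il18rap were higher, with log2 changes of 1.26, 2.94, 1.17 and 2.03, against 22.1% higher and 26.7% lower over all genes. Il18r1 passed the filter only through KO-labelled libraries. All 4 kept their call under each of the 4 other scalings. Of the 26 neighbours called around the 9 genes, 17 did so, these 4 included. Mcpt8 lies among chymase and granzyme genes, where 13 of 17 neighbours were under 1 TPM in every library, and the 3 called higher were Ctsg, Cma1 and Khnyn. Next to Ms4a2, 5 of 10 tested neighbours were lower and 2 higher. There Ms4a4c fell from 226 and 222 TPM to 2.07 and 3.75 TPM, whereas Ms4a3 rose from 6.24 and 7.11 to 49.7 and 51.2 TPM. Around Gata2 1 of 3 tested neighbours was higher and 2 were lower, around Cpa3 1 of 4 was higher and 1 lower, and around Hdc 2 of 4 were higher and 0 lower. The calls around Gata2 (Rab7, Rpn1 and Eefsec) and that of Hps3 near Cpa3 were each kept under 3 of the 4 scalings. Atp8b4 near Hdc kept its call under 2 of them, and Ms4a4b near Ms4a2 under 1.

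**Figure D4:**
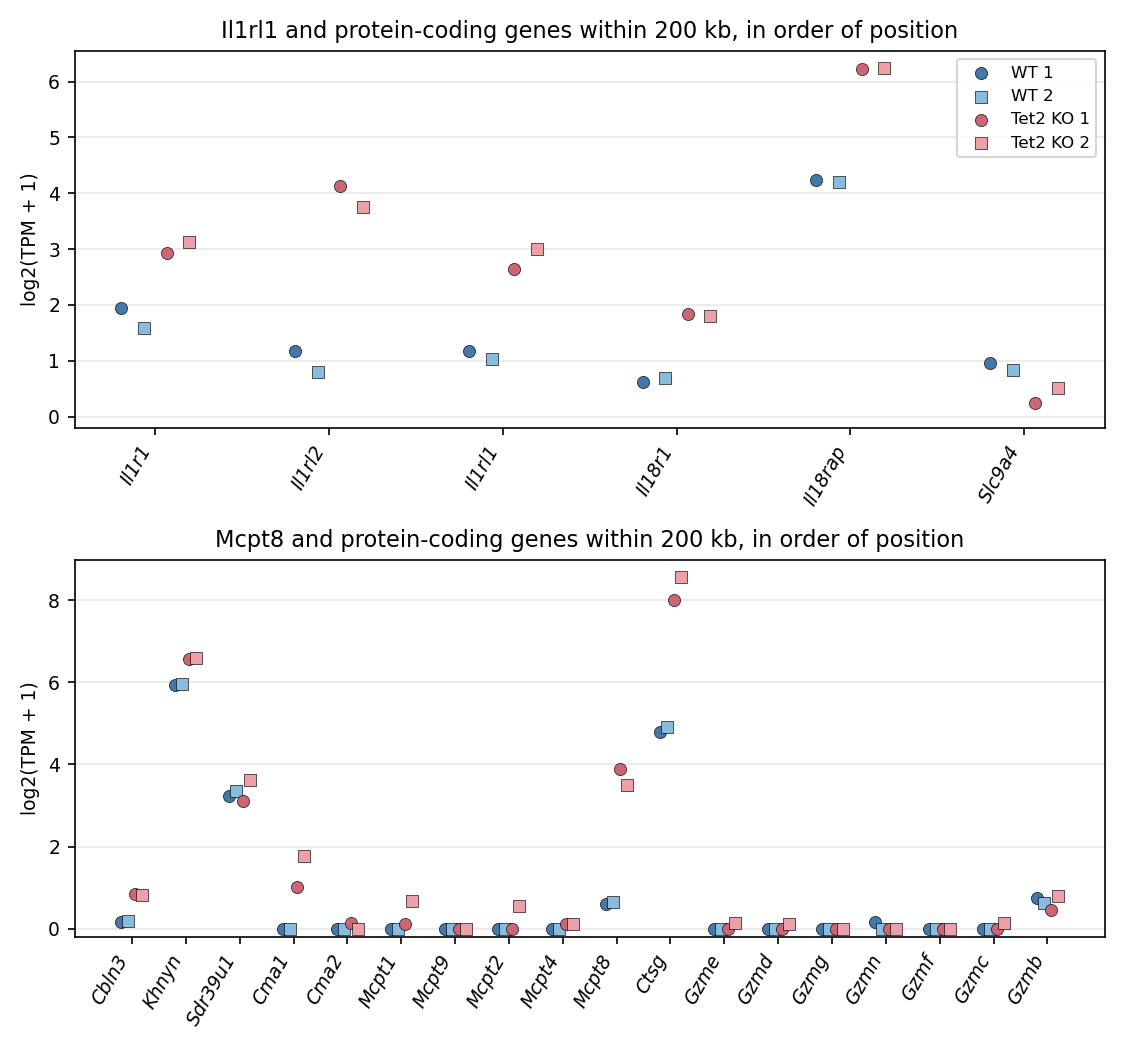
Level in each library, as log2(TPM + 1), of Il1rl1 (top) and Mcpt8 (bottom) and of protein-coding genes within 200 kb, in order of position; circles and squares are replicates 1 and 2. The receptor genes around Il1rl1 are higher in the red libraries, while most neighbours of Mcpt8 lie near 0 in all 4.

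For each tested gene the nearest profile over the 4 libraries was sought, as the smallest root mean square distance of log2(TPM + 1). It was Gimap9 for Cpa3 (0.15), S1pr4 for Hdc (0.098), Dusp14 for Gata2 (0.088), Ccno for Mcpt8 (0.15) and Hist1h2ac for Il1rl1 (0.14). With 4 libraries in 2 groups this describes a level in each group and little else.

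Markers of several other cell types differed between the groups, and their part in these results was not tested. Over all genes tested, 22.1% were called higher and 26.7% lower. Of 34 genes called over all marker lists, eosinophil and leukaemic cell genes included, 29 kept their call under all 4 other scalings. Neutrophil markers were higher in 11 of 12 cases, summing to 1686 and 1722 TPM in WT, compared with 86181 and 107450.2 TPM in KO-labelled libraries. Monocyte and macrophage markers were lower in 7 of 9 tested cases, from 2954 and 2966 TPM to 1378 and 1392 TPM. Among the 7, the call of Adgre1 was lost under each of the 4 other scalings. The T cell and ILC2 list, summing to 215 and 220 TPM in WT, compared with 25.4 and 35.8 TPM in the others, was mostly Il7r, which was called lower. In that list Rora was called higher, from 0.21 to 1.39 ± 0.283 TPM, having passed the filter only through KO-labelled libraries, Cd3e reached 2.01 TPM, and Cd3d and Gata3 stayed at or under 0.88 TPM. B and plasma cell markers summed to 13.6 to 21.1 TPM with overlapping groups, and of 3 tested Cd79a and Sdc1 were higher (0.71 to 2.83 and 5.27 to 11.2 TPM) and Cd79b lower (7.72 to 1.88 TPM). NK cell markers summed to 0.35 to 1.46 TPM, with overlapping groups and none tested. Erythroid and megakaryocyte markers summed to 8.26 and 10.4 TPM in WT, compared with 20.5 and 66.1 TPM in the others, where Hba-a1 stood at 0 and 33.9 TPM. Of 5 tested, Hbb-bt, Car1 and Pf4 were higher and Itgb3 lower, with Hbb-bt and Car1 passing the filter only through KO-labelled libraries, and Hbb-bs was at 0 in each library.

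**Figure D5:**
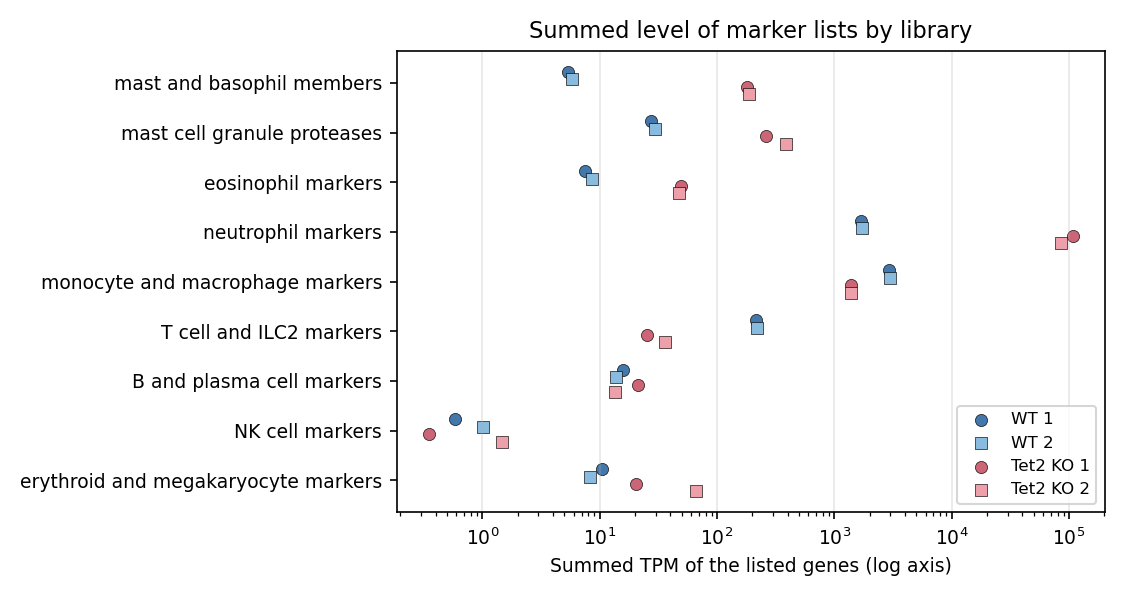
Summed TPM of each marker list in each library, on a log axis; circles and squares are replicates 1 and 2. The 9 genes (top row) sum to 5.34 and 5.78 TPM in WT, compared with 179 and 186 TPM in KO-labelled libraries, and the neutrophil list shows a shift in the same direction at a far higher level.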

How the data were processed

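RNA was measured in 4 libraries, 2 per genotype. The deposited values are TPM, made by the authors with STAR and RSEM on mm10, per the submitters' processing notes; the versions and gene annotation used are not given in the sources used here. Among 24589 table rows, 92 ERCC spike-ins were left out of all tests. Each library sums to 1000000 TPM within rounding.

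Depth was estimated from genes with a single RefSeq transcript (600 to 2500 nt). After scaling by length less 50 nt, 84.4% to 86.8% of low values lay within 0.2 of a whole multiple. Fragment numbers derived from it are approximate and carry no interval. The gene models and the 50 nt were chosen after the values were seen: an earlier estimate, from other gene models, gave steps that disagreed between libraries and a larger WT spread. Within WT the variance was 1.16 times that of sampling (robust estimate, 5724 genes, 28 beyond 5 SD; 1.86 without robust estimation), and within Tet2 KO 8.75 times (5968 genes). The WT libraries were therefore averaged, as earlier work on these data did. With 1 residual degree of freedom, the single WT value is taken to scatter as the KO-labelled libraries do.

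Testing used log2(TPM + 1) and limma (version 3.58.1, R 4.3.3), with trend and robust moderation, for genes with at least 1 TPM in at least 2 libraries; Benjamini-Hochberg adjustment ran over all 11919 genes, two-sided, threshold 0.05. The procedure was checked on simulated data in which the WT value scattered as the KO-labelled libraries did and far fewer genes changed. That check therefore does not test the assumption about the single WT value. Coordinates come from GENCODE M21 (mm10), counted from 1.

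The 9 genes, the lists and the tests were chosen with earlier results of these data known. Named genes are the 9, the 3 largest called changes in each of the 5 role lists, and 16 lineage genes fixed by name. The alternatives tried were a pseudocount of 0.1, filters of 0 or 5 TPM, 4 scalings, limma without trend and robust moderation, both WT libraries as samples with and without a replicate block, and leaving out each library. The 0 TPM filter leaves out genes at 0 in all libraries; that reading was settled on after both versions had been seen, and the version with those genes was added as a further alternative.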

Additional observations from a re-analysis of the deposited data

How the results depend on the processing

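All 5 tested genes of the set were called higher in 13 of 15 alternatives, the exceptions being both without a filter. With no filter on low values 1 of the 9 was called (5 of the 9 at an unadjusted p under 0.05, by limma). Of 76 other lineage genes tested 0 were called higher and 0 lower (22 and 17 unadjusted). Of all genes 123 were called higher and 295 lower. The share of all genes under the unadjusted threshold was not computed, so the unadjusted counts here have no background and are no support. Including genes at 0 in all libraries, an alternative added after seeing the data, gave 246 higher and 1798 lower, 1 of the set (6 unadjusted), and 2 higher and 3 lower among the other lineage genes. The cause was not tested. A filter of 5 TPM left 16 other lineage genes higher, with fewer genes tested. ERCC scaling gave 4942 genes higher and 1492 lower and moved the median of all genes from -0.12 to 0.43; calls were higher in 76.8% of cases with it and in 57.8% without the 20 most abundant genes, ERCC and Rn45s, against 45.2% as reported. Leaving out 1 library gave 2651 to 4321 genes higher and 3192 to 5674 lower; the highest counts came without Tet2 KO replicate 1 (4321 higher, 4987 lower) or replicate 2 (3974 higher, 5674 lower), where both WT libraries were samples and the lone Tet2 KO library was assumed to vary like them. With the replicate block 3495 genes were higher and 4461 lower, against 3520 and 4517 without it, and 5 of the set in both. The numbers only name libraries: deviations of same-numbered libraries correlated at -0.011 over 11919 genes. Of 28 named genes tested, Csf2rb had no call to lose. Without the filter 26 lost their call and only Hdc kept it. With genes at 0 included 25 lost it, and Hdc and Ptgs1 kept it. None of the named genes called changed direction in the 15 alternatives. Among other lineage genes called, Ndst2 did with ERCC scaling (0.013). Depth limits Fcer1a, Prss34 and Tpsb2, each seen in under 9 estimated fragments per library.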

Other observations

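Granule genes of eosinophils, close relatives of basophils, were unevenly present in KO-labelled libraries. Prg2, which encodes major basic protein and is also made by mast cells and basophils, was at 0 and 0.28 TPM in WT but 30.5 and 24.9 TPM in the others (limma adjusted p = 3.63e-09), a level like that of Cpa3. Ear2, an eosinophil-associated ribonuclease gene, rose from 0.535 to 13.7 ± 2.27 TPM (limma adjusted p = 4.05e-07). Both were tested only because of their level in KO-labelled libraries. Epx, the eosinophil peroxidase gene, stood at 0.23 and 0.38 TPM and the IL-5 receptor gene Il5ra at 0.25 and 0.05 TPM in the same libraries, and Ear6 was at 0 in all 4. Of the 9 eosinophil markers 4 were tested, 2 were higher and 0 lower, against 22.1% and 26.7% of all genes tested. Siglecf (limma adjusted p = 0.185) and Alox15 (limma adjusted p = 0.0651) did not pass.

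Pf4, a platelet chemokine gene, was at 1.30 and 0.61 TPM in WT but 10.7 and 15.7 TPM in KO-labelled libraries, while Gp9 did not exceed 0.52 TPM. Itgb3, an integrin chain of megakaryocytes and other cells, fell from 4.24 to 1.52 ± 0.481 TPM (limma adjusted p = 0.00721). That call was kept under 2 of the 4 other scalings. Tal1, a factor of erythroid, megakaryocyte and mast cell lineages, went from 0.015 to 2.63 ± 0.389 TPM (limma adjusted p = 3.49e-05), tested only because of its level in those libraries, whereas Zfpm1, which encodes the GATA cofactor FOG-1, fell from 13.1 to 2.55 ± 0.679 TPM (limma adjusted p = 8.60e-05). These genes were picked after their values were seen.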
